A study of Mus musculus with 4 samples.

Results

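The quantity described here is how far the difference between urethane-induced lung tumor and non-tumor lung depended on the transcription factor Nrf2. For each gene the tumor minus non-tumor difference in Nrf2+/+ mice was subtracted from that in Nrf2-/- mice, on the log2 scale. A positive difference of differences means that the tumor stood higher against its non-tumor pool in the Nrf2-/- mice, and a negative one that it stood lower. A gene was included when its representative probe, the probe with the highest mean level, was well above background on 4 of 4 arrays, which held for 16287 of 32300 genes or transcripts on the array (50.4%). Of these, 12291 have a gene symbol.

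The samples were lungs of female ICR mice aged 6 months that had been injected intraperitoneally with the carcinogen urethane at 1 g/kg 16 weeks before. ICR is an outbred stock. The groups were non-tumor lung and surface tumors 1.0 to 1.5 mm across, each from Nrf2+/+ mice and from mice that lacked Nrf2 (Nrf2-/-). All 4 groups were urethane-treated, so there is no untreated lung. Material of 8 mice was pooled per group and each pool was hybridised to 1 whole-genome array. The labels do not say whether tumor and non-tumor material came from the same mice, nor whether each mouse gave equal RNA. The design therefore had 1 array per group and no replicate. It holds 4 values per gene and the difference of differences uses all of them, so no test could be made, no p-value is given, and the spread between mice or between pools is unknown. In these bulk pools, fewer cells of a type and less RNA per cell cannot be told apart.

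Nrf2 (gene symbol Nfe2l2) is held at low levels by Keap1, which marks it for degradation, and is released by oxidants and electrophiles. It then enters the nucleus, pairs with small Maf proteins and switches on genes for glutathione synthesis, detoxification and NADPH supply through the antioxidant response element. In the lung it is known for protection against inhaled oxidants and carcinogens and for restraining inflammation, and in established cancers an active Nrf2 can favour growth.

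The labels were checked on Nfe2l2 itself. Its first probe read 7913 and 7478 intensity units in the Nrf2+/+ lung and tumor pools, against 5.13 and 6.94 in the Nrf2-/- pools, and the second probe read 6147 and 6157 against 6.07 and 6.50. Neither probe was well above background in either Nrf2-/- pool, so Nfe2l2 is not among the genes described. Across the arrays, 54.2% to 63.5% of spots were well above background and no spot was saturated. The Nrf2+/+ non-tumor array was alone on its slide and the other 3 shared a second slide. The difference of differences always uses both slides, so slide and the Nrf2+/+ non-tumor pool cannot be told apart, and the genotype difference between the tumors, which lies within the second slide, is given beside the gene lists that shifted or had members past the mark.

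Levels below are log2 signals relative to the 75th percentile of the array, and they are given in the order Nrf2+/+ non-tumor, Nrf2-/- non-tumor, Nrf2+/+ tumor and Nrf2-/- tumor. Each difference of differences carries the scanner software's own error, which covers the reading of the spots and not the mice, and whose median was 0.29. The differences of differences of all genes had a median of -0.05 and a robust SD of 0.35. At a mark of 2-fold (1 on the log2 scale), 434 genes were higher (2.66% of those measured) and 269 were lower (1.65%). Of these, 286 and 202 have a symbol, and 57 and 28 passed 4-fold. The balance depended on the scaling: with each array's median in place of its 75th percentile, a change that shifted the all-gene median by -0.16, 305 were higher and 456 lower, so that the higher share of the marked genes was 40.1% in place of 61.7%. Just inside the mark the smallest sizes were 1.0014 and 1.0000, and just outside it 0.9997 and 0.9995. Dim genes passed more often: 8.89% of the dimmest of 4 equal bins of genes by mean level were past the mark and 1.42% of the brightest.

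The tumor differences from which it was formed were more numerous in Nrf2+/+ mice. In Nrf2+/+ mice, 1279 genes were at least 2-fold higher in tumor (7.85%) and 1645 lower (10.1%), and in Nrf2-/- mice 742 were higher (4.56%) and 841 lower (5.16%). Among the 434 genes with a higher difference of differences, the tumor difference passed 2-fold only in Nrf2+/+ mice for 191 (44.0%). By definition these were lower in the Nrf2+/+ tumor. In the Nrf2-/- tumor 119 of them were also lower, by less than 2-fold, and 72 were higher. The tumor difference passed only in Nrf2-/- mice for 94 (21.7%) and in both genotypes in 1 direction for 43 (9.91%). It passed in opposite directions for 5 (1.15%) and in neither for 101 (23.3%). Among the 269 lower genes, 140 passed only in Nrf2+/+ mice (52.0%) and were by definition higher in the Nrf2+/+ tumor. In the Nrf2-/- tumor 106 of them were also higher and 34 were lower. The others passed in both in 1 direction for 62 (23%), only in Nrf2-/- mice for 21 (7.81%), in opposite directions for 3 (1.12%) and in neither for 43 (16.0%). In both sets the most frequent pattern was a tumor difference past 2-fold in Nrf2+/+ mice only. That the Nrf2-/- difference was the smaller in these genes follows from the definition.

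**Figure D1:**
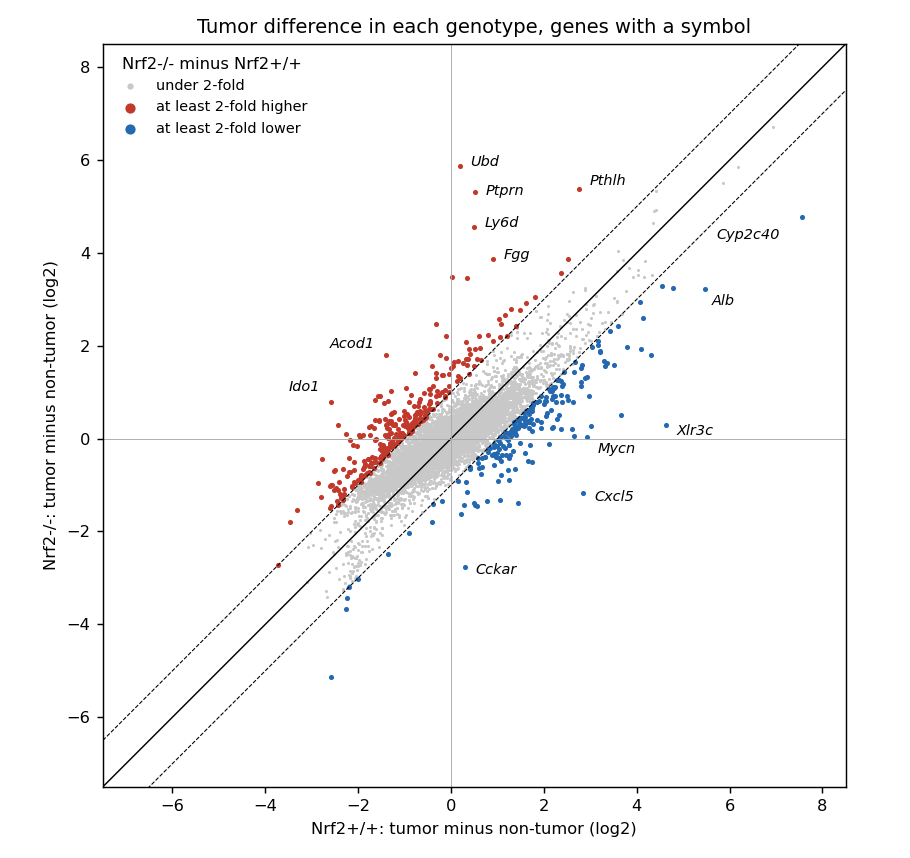
Tumor minus non-tumor difference (log2) in Nrf2+/+ mice (x axis) and Nrf2-/- mice (y axis), 1 point per gene with a symbol. The solid line marks equal differences and the dashed lines a 2-fold difference of differences; Ubd and Ptprn stand farthest above the line, and Xlr3c and Cxcl5 farthest below.

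**Figure D2:**
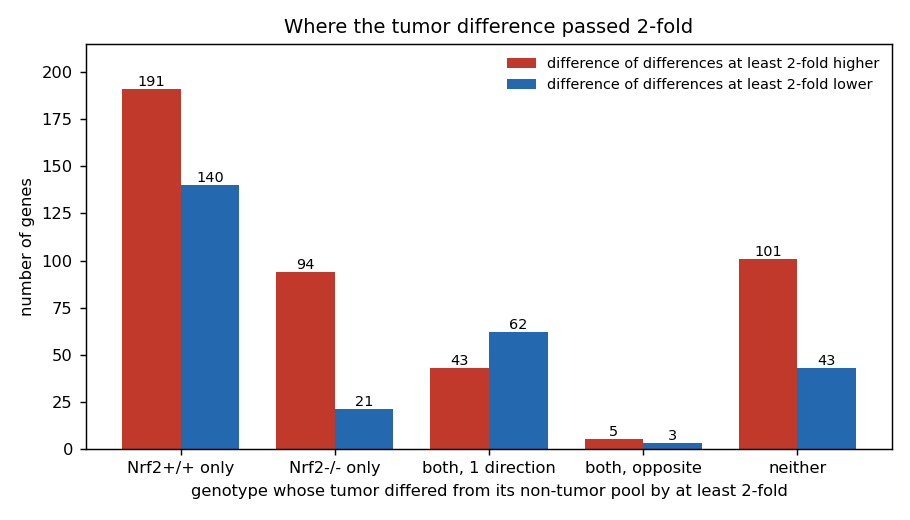
Number of genes (y axis) with a difference of differences at least 2-fold higher or lower, by the genotype in which the tumor differed from its non-tumor pool by at least 2-fold (x axis). The largest bars are genes that passed only in Nrf2+/+ mice, 191 higher and 140 lower.

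In many genes 1 pool stood apart, at least 2-fold outside the other 3 while these lay within 2-fold of each other. Among the higher genes this was the Nrf2-/- tumor standing high in 63 (14.5%), the Nrf2+/+ non-tumor pool standing high in 60 (13.8%), the Nrf2+/+ tumor standing low in 33 (7.60%) and the Nrf2-/- non-tumor pool standing low in 1. Among the lower genes it was the Nrf2+/+ tumor standing high in 37 (13.8%), the Nrf2+/+ non-tumor pool standing low in 22 (8.18%), the Nrf2-/- tumor standing low in 9 (3.35%) and the Nrf2-/- non-tumor pool standing high in 4. The remaining 277 (63.8%) and 197 (73.2%) had no pool apart.

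Genes that stood high in the Nrf2-/- tumor led the positive differences. Ubd encodes FAT10, a ubiquitin-like modifier induced by interferon gamma and tumor necrosis factor. Its levels were -1.24, -3.54, -1.05 and 2.34, a difference of differences of 5.69 ± 0.31, from a tumor difference of 0.19 in Nrf2+/+ and 5.87 in Nrf2-/- mice. The Nrf2-/- pools thus held both its lowest and its highest level. Ptprn, which encodes a protein of neuroendocrine secretory granules, had levels of -4.44, -4.22, -3.93 and 1.09 and a difference of differences of 4.80 ± 0.43. Ly6d, a surface protein of epithelial and lymphoid precursor cells, stood at 1.24, 1.24, 1.74 and 5.81, which gave 4.07 ± 0.29. In Ptprn and Ly6d 3 pools lay together and the Nrf2-/- tumor lay far above them. Cited1, a transcriptional co-activator, had the same form, with -4.02, -3.84, -3.69 and -0.38 and a value of 3.13 ± 0.40. Txndc2, a thioredoxin known from sperm, gave 2.78 ± 0.45 with levels of -3.88, -4.43, -4.20 and -1.97. Its smallest value over the alternative processing runs described below was 1.15.

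A pair of fibrinogen chains was among these genes. Fga, the alpha chain, had levels of -3.89, -2.46, -3.87 and 1.02 and a difference of differences of 3.46 ± 0.40. Fgg, the gamma chain, had -1.09, 0.94, -0.20 and 4.80 and a value of 2.97 ± 0.29. Both were already higher in Nrf2-/- than in Nrf2+/+ non-tumor lung, by 1.43 and 2.03, and Fga was 4.89 higher in the tumor. Pthlh, which encodes parathyroid hormone-related protein, was higher in the tumors of both genotypes, by 2.75 and 5.38, and its 2 probes gave 2.62 and 1.28.

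Other positive differences came from the Nrf2+/+ non-tumor pool. Ido1, the interferon-induced enzyme that degrades tryptophan, had levels of 2.21, -0.69, -0.38 and 0.09 and a difference of differences of 3.37 ± 0.29. Gng7, a G protein gamma subunit, had -1.78, -3.89, -4.23 and -3.59 and gave 2.74 ± 0.44. Vangl2, a planar cell polarity protein, had -2.30, -4.47, -3.88 and -3.55 and gave 2.50 ± 0.43. Over the alternative processing runs the smallest values of Gng7 and Vangl2 were 1.41 and 1.11. In Ido1, Gng7 and Vangl2 the Nrf2+/+ non-tumor pool stood alone above the other 3, and the tumors differed between genotypes by 0.47, 0.64 and 0.33. Acod1, which makes the macrophage metabolite itaconate, went in opposite directions: its tumor difference was -1.40 in Nrf2+/+ and 1.80 in Nrf2-/- mice, from levels of -1.99, -3.83, -3.39 and -2.03, and its difference of differences was 3.20 ± 0.34.

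Most of the largest negative differences were of genes high in the Nrf2+/+ tumor. Xlr3c, of the X-linked lymphocyte-regulated family, stood at -3.12, -0.67, 1.50 and -0.37, a difference of differences of -4.32 ± 0.30. Its Nrf2+/+ pools held both its lowest and its highest level. Mycn, a Myc family transcription factor, had -1.90, -2.11, 1.02 and -2.08 and a value of -2.89 ± 0.30. Akr1c19, an aldo-keto reductase, had -0.58, 0.36, 2.07 and 0.41, and its 2 probes gave -2.60 and -1.25. In Mycn and Akr1c19 the Nrf2+/+ tumor was the pool apart. Ecrg4, a secreted protein precursor, had -5.11, -4.37, -1.45 and -3.86 and gave -3.15 ± 0.49. Over the alternative processing runs its value nearest to 0 was -1.57. Adora1, the adenosine A1 receptor, was higher in both tumors, by 4.31 in Nrf2+/+ and 1.81 in Nrf2-/- mice, and its 3 probes ranged from -2.50 to -1.34. Psrc1, a mitotic spindle protein, had tumor differences of 4.09 and 1.92 and its 3 probes ranged from -2.17 to -1.69, but its tumor levels of 1.16 and 1.04 were close, and its non-tumor levels of -2.93 and -0.88 were not.

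The Bex genes, small X-linked adaptor proteins first described in brain, were measured as a family after their values were seen. Bex1 stood at -3.57, -4.12, -0.55 and -3.84 and gave -2.74 ± 0.41. Bex4 had 3.84, 2.79, 5.96 and 2.68 and gave -2.23, and Bex2 had 2.77, 1.29, 5.14 and 1.51 and gave -2.15. In these 3 the Nrf2+/+ tumor held the highest level. Bex3 was instead higher in both tumors, at 3.62, 4.04, 5.37 and 5.35, and its difference of differences of -0.44 did not reach the mark. Near-identical members of this and other families named here (Xlr3, Cyp2c, Cyp2a, Akr1c, Gbp and H2 genes) may share signal on a probe.

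**Figure D3:**
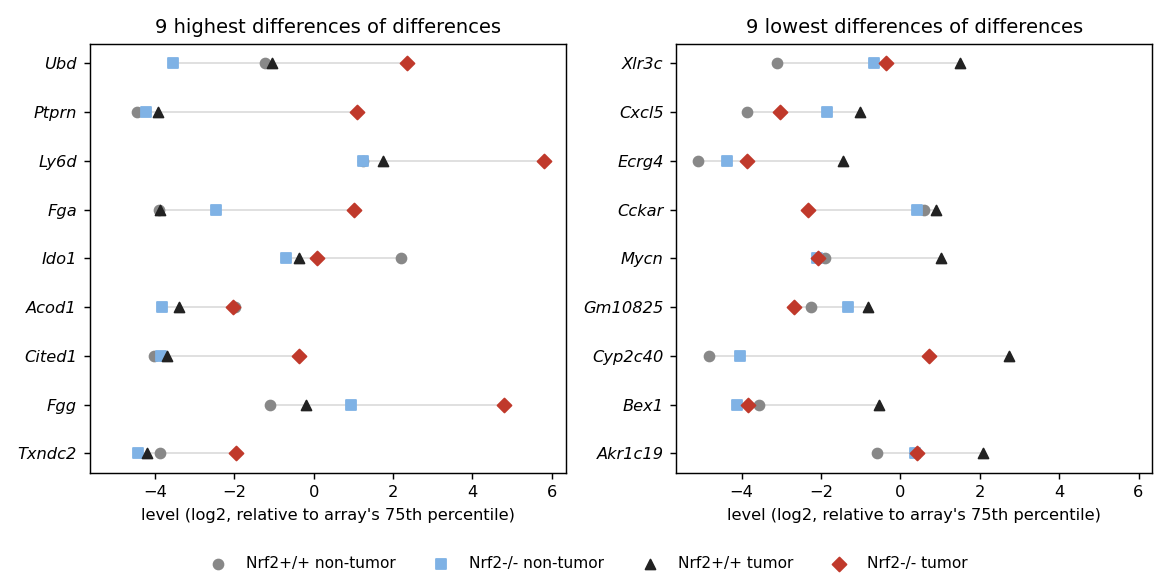
Levels (x axis, log2 relative to the 75th percentile of the array) in the 4 pools for the 9 genes with the highest and the 9 with the lowest difference of differences, 1 mark per pool. Ptprn, Ly6d and Cited1 have 3 pools together and the Nrf2-/- tumor far to the right; Mycn and Bex1 have the Nrf2+/+ tumor to the right.

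Most known Nrf2 target genes were lower in Nrf2-/- mice in both tissues, and their differences of differences had no common direction. None of the 31 measured members of a list of 39 passed the 2-fold mark in either direction, beside 2.66% and 1.65% of all genes. At these shares a list of this size would hold few such members or 0. The median of the list was -0.03, with 15 members above 0 and 16 below, and its values ran from -0.85 to 0.82. With genes above background on at least 1 array counted, 36 members were measured and 2 were lower. The 31 members were higher in tumor by a median of 0.42 in Nrf2+/+ and 0.32 in Nrf2-/- mice. Their median genotype difference, Nrf2-/- minus Nrf2+/+, was -0.37 in non-tumor lung and -0.28 in tumor, and 23 and 24 of the 31 were below 0. Me1, malic enzyme, which supplies NADPH, had levels of 1.36, 0.06, 3.70 and 2.48: it was higher in tumor by 2.34 and 2.42, so the genotypes kept their distance, and its difference of differences was 0.08 ± 0.29. Hmox1, heme oxygenase 1, was higher in tumor by 1.41 and 1.50. Aox1, aldehyde oxidase, had 2.56, 0.95, 3.51 and 2.29, and gave 0.39.

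The largest values of the list were on either side. Gpx2, a glutathione peroxidase of epithelia, had 1.68, -0.40, 2.14 and -0.79 and a difference of differences of -0.85 ± 0.29. Gclc, the catalytic subunit of the first enzyme of glutathione synthesis, had 2.19, 1.82, 2.74 and 3.19 and gave 0.82 ± 0.29, so that its level in tumor was the higher one in Nrf2-/- mice. The inclusion rule left out 6 list members with a probe. Of these, 4 (Nqo1, Gclm, Gsta1 and Gsta2) were well above background in both non-tumor pools but not in the Nrf2-/- tumor, Slc7a11 was so in both tumors only, and Abcc2 in no pool. Nqo1, the quinone reductase most used as an Nrf2 reporter, read 248, 78.8, 58.1 and 34.7 intensity units. Gsta1, a glutathione transferase, read 198, 159, 109 and 5.89. The counts of the list do not cover these genes, and the signal of Gsta1 in the Nrf2-/- tumor was far under that in the other 3 pools.

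Interferon-induced genes had positive differences throughout. Interferon signalling acts on the interferon-stimulated response element in the promoters of these genes. Of 20 measured members of a list of 23, 7 were at least 2-fold higher (35.0%, beside 2.66% of all genes) and 0 lower, 20 were above 0, beside 43.8% of all genes, and the median was 0.91 beside -0.05 for all genes. In Nrf2+/+ mice 20 of the 20 were lower in tumor, with a median of -1.02, while in Nrf2-/- mice 13 were lower and the median was -0.12. The gap arose on both sides: in non-tumor lung 18 of 20 were lower in Nrf2-/- mice, with a median of -0.44, and between the tumors, on the shared slide, 19 of 20 were higher in Nrf2-/- mice, with a median of 0.35.

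After Ido1 the largest value was that of Gbp4, a guanylate-binding GTPase that acts against intracellular pathogens. It had levels of 2.61, 1.23, 0.28 and 0.57 and a difference of differences of 1.67 ± 0.29. Other GTPases of the list, among them Ifi47 at 0.93 and Gbp3 at 0.89, were short of the mark. Igtp, an immunity-related GTPase, had 5.86, 4.60, 4.47 and 4.82 and gave 1.61 ± 0.29. Irgm1, of the same family, had 2.20, 0.74, 0.99 and 1.02, and its 2 probes gave 1.50 and 1.23. In these 3 genes the Nrf2+/+ non-tumor pool was highest and the other 3 lay closer together. Gbp8, which is not in the list, gave 2.03 and 2.04 with its 2 probes. Ifit2, an RNA-binding antiviral protein, gave 1.58 ± 0.47 at low levels, Usp18, which removes ISG15 from proteins, 1.23 ± 0.29, and Irf7, a transcription factor of the pathway, 1.03 ± 0.29. The interferon gamma gene Ifng, also outside the list and named after its values were seen, was instead high in the Nrf2-/- tumor alone, at -2.29, -2.54, -2.52 and -0.74, and its 2 probes gave 2.03 and 2.06.

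The promoters of a pair of these genes are shown because both passed the mark and hold the element. The 200 bases before the gene start are given 5′ to 3′ along the gene's strand, from RefSeq on GRCm38.p6, with matches to GAAANNGAAA on either strand in capitals.
Igtp, chr11:58199356-58199555, plus strand: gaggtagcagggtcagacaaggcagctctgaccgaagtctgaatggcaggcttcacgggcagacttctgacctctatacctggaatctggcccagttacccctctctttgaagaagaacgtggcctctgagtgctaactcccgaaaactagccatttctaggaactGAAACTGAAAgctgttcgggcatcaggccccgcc
Irgm1, chr11:48871421-48871620, minus strand: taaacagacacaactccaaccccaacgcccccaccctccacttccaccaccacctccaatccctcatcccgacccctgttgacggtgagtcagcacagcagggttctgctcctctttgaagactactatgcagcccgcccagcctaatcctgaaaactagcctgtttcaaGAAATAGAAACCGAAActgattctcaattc
The 2 matches in Irgm1 overlap. Windows from 250 bases before to 50 after the start were found for 15 of the 20 list members, and 10 of these 15 (66.7%) held a match, as did 3.44% of all 32851 windows and 3.99% of all 27025 genes with a window. Of the 4 members past the mark that had a window, 2 held it. A match is a description of the letters and was not tested as a binding site.

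Genes for presenting peptides on MHC class I, which interferons also induce, were shifted in the same direction. All 13 measured genes had a positive difference of differences, with a median of 0.75, and 3 (23.1%, beside 2.66% of all genes) were at least 2-fold higher: H2-T23, Nlrc5 and Tap1. In Nrf2+/+ mice 13 of 13 were lower in tumor, with a median of -0.52, and in Nrf2-/- mice 4 were lower, with a median of 0.08. Between the tumors 12 of 13 were higher in Nrf2-/- mice, with a median of 0.45, and in non-tumor lung 5 of 13 were, with a median of -0.11. Tap1, a peptide transporter, had 1.40, 0.31, 0.33 and 0.41 and gave 1.19 ± 0.29, and Nlrc5, the class I transactivator, had -2.40, -3.05, -3.76 and -2.96 and gave 1.44 ± 0.38. H2-T23, a non-classical class I molecule, had 3.80, 5.25, 1.63 and 5.22 and gave 2.14 ± 0.29, with the Nrf2+/+ tumor lowest. MHC class II genes had no such shift, with a median of -0.21 and genotype medians of 0.32 in lung and 0.11 between the tumors. Of 8 measured, 0 passed the mark, beside 2.66% of all genes higher and 1.65% lower.

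Markers of neutrophils, the granulocytes that are first recruited to injury, gave the highest median of the 40 lists, 0.94. Of 15 measured, 7 were at least 2-fold higher (46.7%, beside 2.66% of all genes) and 1 lower (6.67%, beside 1.65%). Between the tumors 12 of 15 were higher in Nrf2-/- mice, with a median of 0.60, and in non-tumor lung 7 of 15 were, with a median of -0.23. Cxcr2, the receptor for neutrophil chemokines, had levels of -1.69, -2.31, -2.47 and -0.90 and a difference of differences of 2.18 ± 0.30. Il1r2, a decoy receptor for interleukin 1, had -3.28, -2.79, -3.02 and -1.15 and gave 1.38 ± 0.33. In both the Nrf2-/- tumor was highest. Retnlg gave 1.36, Trem1 1.23, the granule protein Ltf 1.17, Mmp9 1.16 and Csf3r, the receptor for granulocyte colony-stimulating factor, 1.14. Other widely used neutrophil markers were near 0: S100a8 gave 0.17 and S100a9 0.23, and Cd177, which was 6.93 and 6.72 higher in the tumors, gave -0.21. Lcn2, an iron-binding protein that epithelia also make, had 0.46, 2.58, 4.59 and 5.19 and gave -1.53 ± 0.29. With genes kept only at a signal of at least 100 on all arrays, the median of the list was 0.23.

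Cytokine genes were mostly higher in Nrf2-/- mice in both tissues. Between the tumors 19 of 21 were higher in Nrf2-/- mice, with a median of 1.37, and in non-tumor lung 17 of 21 were, with a median of 0.89. In the difference of differences 8 of 21 were at least 2-fold higher (38.1%, beside 2.66% of all genes) and 1 was at least 2-fold lower (4.76%, beside 1.65%). Of the 21, 7 were below 0, and the median was 0.56. Ccl3 and Ccl4, which attract monocytes and lymphocytes, had levels of -3.40, -2.06, -3.84 and -0.98 and of -0.92, -1.05, -1.50 and -0.08. Their differences of differences were 1.52 ± 0.37 and 1.56 ± 0.29. Cxcl9 and Cxcl10, ligands of CXCR3 induced by interferon, gave 1.24 and 1.05, and Cxcl9 was higher in both tumors, by 1.80 and 3.05. Ccl20 gave 1.49, Cxcl13, which attracts B cells, 1.47, Il1b 1.26 and Tnf 1.07. Below 0 were Csf2 and Ccl17, both at -0.72, Cxcl15 at -0.53, Ccl9 at -0.48, Ccl2 at -0.42 and Ccl6 at -0.34, all short of the mark, and Cxcl5, a neutrophil attractant made by epithelium, which passed it. Cxcl5 had -3.88, -1.85, -1.02 and -3.03, with tumor differences of 2.85 in Nrf2+/+ and -1.18 in Nrf2-/- mice, and its difference of differences was -4.03 ± 0.34.

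Lymphocyte markers were shifted in the same direction. Of 12 B and plasma cell markers 4 were at least 2-fold higher (33.3%, beside 2.66% of all genes) and 0 lower, with a median of 0.72. Of the 12, 9 were above 0 and 3 below, down to -0.22. Between the tumors 10 of 12 were higher in Nrf2-/- mice, with a median of 0.28, and in non-tumor lung 4 of 12 were, with a median of -0.28. Jchain, which joins the subunits of secreted IgA and IgM, had 1.06, 0.91, 0.94 and 3.12, with the Nrf2-/- tumor apart, and its 2 probes gave 2.33 and 2.38. Pou2af1, a B cell co-activator, gave 1.68, Fcer2a, the low-affinity IgE receptor, 1.54, and Mzb1, a chaperone of plasma cells, 1.31. All 17 T and NK cell markers were above 0, with a median of 0.43. In the Nrf2-/- tumor 17 of 17 were higher than in the Nrf2+/+ tumor (median of 0.65, against 0.31 in non-tumor lung). Gzmb, at 1.14, was the single T and NK cell marker past the mark (5.88%, beside 2.66% of all genes). Cd3d had 0.88, 1.55, 0.40 and 1.36 and gave 0.29. Among 25 macrophage markers 1 was higher, Spp1 at 1.43 (4%, beside 2.66% of all genes). Trem2 at -1.12 and Ctsk at -1.04 were lower (8%, beside 1.65%), and the median of the list was 0.12. Macrophage markers were mostly higher in Nrf2-/- mice in both tissues, by medians of 0.48 in lung and 0.55 between the tumors. The part of these cell markers in the interferon and cytokine values was not tested.

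Cell cycle genes had the opposite sign. Of 32 measured, 0 were at least 2-fold higher and 7 lower (21.9%, beside 1.65% of all genes), 29 were below 0, and the median was -0.62. Their tumor difference had a median of 1.04 in Nrf2+/+ and 0.26 in Nrf2-/- mice. Between the tumors, on the shared slide, 28 of 32 were lower in Nrf2-/- mice, with a median of -0.49, and in non-tumor lung 27 of 32 were higher, with a median of 0.22. Birc5, survivin, which works at the centromere, had levels of 0.12, 0.60, 1.56 and 0.86 and a difference of differences of -1.18 ± 0.29. Cdk1, the kinase that starts mitosis, had -2.48, -2.38, -0.74 and -1.77 and gave -1.13 ± 0.30. Ccna2, its cyclin A partner, had -0.73, -0.55, 0.63 and -0.24 and gave -1.05 ± 0.29. Each had its highest level in the Nrf2+/+ tumor. Cdc20, which activates the anaphase-promoting complex, gave -1.05 ± 0.29, and Plk1, a mitotic kinase, -1.08 ± 0.30. Ccnb1 had 3 probes from -1.32 to -0.73, and Top2a, topoisomerase II alpha, gave -1.15 ± 0.43 at low levels. Mki67, the usual marker of dividing cells, had 0.51, 0.82, 1.61 and 1.07 and gave -0.85, short of the mark. Above 0 were Bub1, a checkpoint kinase, at 0.32, Mybl2, a transcription factor, at 0.27, and Pcna, the sliding clamp of replication, at 0.23. Of the replication licensing factors, Cdc6 gave -0.95 and the 6 Mcm genes from Mcm2 to Mcm7 between -0.60 and -0.00.

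Promoters of a pair of these genes are shown because they passed the mark and hold the cell cycle homology region, TTTGAA, the element through which the DREAM complex and B-Myb with FoxM1 act on mitotic genes, and the CCAAT box bound by NF-Y. As before, the 200 bases before the start are from RefSeq on GRCm38.p6, with matches to TTTGAA or CCAAT on either strand in capitals.
Top2a, chr11:99024190-99024389, minus strand: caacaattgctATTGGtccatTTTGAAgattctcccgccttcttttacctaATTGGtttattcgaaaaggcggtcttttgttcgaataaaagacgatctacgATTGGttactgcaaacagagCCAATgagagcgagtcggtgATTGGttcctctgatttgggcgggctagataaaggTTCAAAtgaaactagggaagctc
Cdk1, chr10:69352913-69353112, minus strand: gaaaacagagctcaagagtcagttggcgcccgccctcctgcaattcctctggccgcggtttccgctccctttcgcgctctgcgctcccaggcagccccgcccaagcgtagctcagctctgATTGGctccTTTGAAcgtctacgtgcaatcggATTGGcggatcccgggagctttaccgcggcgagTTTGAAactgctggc
Of 26 list members with a window, 11 held TTTGAA (42.3%) and 19 held CCAAT (73.1%), as did 20.2% and 41.1% of all genes with a window. Of all single windows of the same length, 17.9% and 37.4% did. Of the 6 past the mark with a window, 4 held TTTGAA and 5 held CCAAT. For comparison, the core of the antioxidant response element, TGACNNNGC, was in 9 of 25 Nrf2 target genes with a window (36.0%). It was in 14.0% of all genes with a window and in 12.4% of all windows.

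Markers of airway cells stood lower in the Nrf2-/- than in the Nrf2+/+ tumor, 7 of 10 for club cells and 9 of 12 for ciliated cells, with medians of -0.91 and -0.84; of all genes, 47.3% were higher in the Nrf2-/- tumor. In non-tumor lung 8 of 10 and 11 of 12 were also lower in Nrf2-/- mice, by less, with medians of -0.18 and -0.29. Club cells are the secretory cells of the small airways, and their list median was -0.77; 2 of 10 members were at least 2-fold lower (20.0%, beside 1.65% of all genes) and 0 higher. Their tumor difference had a median of -0.49 in Nrf2+/+ and -1.42 in Nrf2-/- mice. Cckar, a receptor for cholecystokinin, had 0.59, 0.43, 0.89 and -2.33, with the Nrf2-/- tumor apart, and gave -3.06 ± 0.30. Cyp2f2, the main club cell P450, had 6.78, 6.53, 5.41 and 4.05 and gave -1.12 ± 0.29. Scgb1a1, the secretoglobin that defines these cells, had 8.23, 8.03, 7.70 and 6.79 and gave -0.72. Scgb3a1, another secretoglobin, gave -0.92 but was 0.46 higher in the Nrf2-/- than in the Nrf2+/+ tumor. Of the 10 club cell markers, 7 had a difference of differences below 0 and 3 above it, up to 0.48. Ciliated cell markers were lower than in lung in the tumors of both genotypes, 12 of 12 in each, with medians of -2.14 and -2.52. They had a median difference of differences of -0.67 with 1 past the mark, Cfap161 at -1.01 (8.33%, beside 1.65% of all genes). Of the 12, 10 were below 0 and 2 above, up to 0.42. Foxj1, the regulator of motile cilia, gave -0.98 ± 0.41. With another background correction, normexp, the ciliated median was -0.30. Alveolar type 2 markers were higher in both tumors, by medians of 1.17 and 0.95. Of 17 measured, 0 passed the mark, beside 2.66% of all genes higher and 1.65% lower. Of the 17, 15 were below 0, with a median of -0.21. Their genotype medians were 0.30 in lung and -0.05 between the tumors.

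Drug-metabolising P450 and flavin monooxygenase genes were spread in both directions, with a median of 0.11. Of 19 measured, 2 were higher (10.5%, beside 2.66% of all genes) and 5 lower (26.3%, beside 1.65%). Their genotype medians were -0.25 in lung and -0.16 between the tumors. Cyp2c40 had the largest Nrf2+/+ tumor difference named here, 7.56, from levels of -4.82, -4.04, 2.74 and 0.73, and its Nrf2-/- tumor difference was 4.76, which gave -2.80 ± 0.40. Cyp2a5, which activates nitrosamines, had 3.17, 1.66, 0.93 and -1.77 and gave -1.19 ± 0.29, and its close relative Cyp2a4 gave -1.40 and -0.58 with its 2 probes. In both Cyp2a genes the Nrf2-/- tumor held the lowest level. Cyp2b10 gave 1.11 and Cyp4a12a 1.59.

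Genes of gut and liver, several of which were strongly raised in the tumors, had a median of -0.80. Of 12 measured, 2 were higher (Fga and Fgg, above; 16.7%, beside 2.66% of all genes) and 4 lower (33.3%, beside 1.65%). The tumor difference of the list had medians of 3.03 and 3.23. By list medians the genotypes differed more in non-tumor lung, whose pools lay on different slides, but the members past the mark named here did not follow this. In non-tumor lung 10 of 12 were higher in Nrf2-/- mice, with a median of 0.62. Between the tumors 5 of 12 were, with a median of -0.08. Alb, albumin, had -3.74, -4.43, 1.73 and -1.20 and gave -2.24 ± 0.38. Mogat2, of fat absorption, gave -1.55 ± 0.37, and Ahsg, fetuin A, -1.24 ± 0.30. Fetub was higher in tumor by 5.85 and 5.50 and gave -0.35. Albumin and the fibrinogen chains, all liver secretory products, thus stood on opposite sides.

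Among matrix genes, Col18a1, the source of endostatin, had 3.36, 3.80, 5.75 and 4.58, with 2 probes at -1.60 and -1.74, and Timp1, an inhibitor of matrix metalloproteinases, had 0.08, 2.66, 1.37 and 2.78, with both probes at -1.17. Several further lists had 0 members past the mark, beside 2.66% of all genes higher and 1.65% lower. At these shares lists of this size would hold few such members or 0. None of 35 oxidative phosphorylation genes, 32 proteasome subunits, 23 hypoxia and glycolysis genes, 22 genes of fatty acid and sterol synthesis or 17 genes of Ras and MAPK output passed the mark, with medians of -0.18, -0.10, -0.05, 0.10 and -0.05. Small shifts were still to 1 side in some: 32 of 35 oxidative phosphorylation genes and 28 of 32 proteasome subunits were below 0. Of all genes 43.8% were above 0, with a median of -0.05. Less that median, the medians of these lists were -0.12 and -0.05. The side of 0 also depends on the scaling, and median scaling alone shifted values by -0.16. The genotype medians of these lists were 0.20 and 0.16 in lung and -0.01 and 0.08 between the tumors. Of the fatty acid and sterol synthesis genes, 16 of 22 were above 0, with genotype medians of 0.22 in lung and 0.38 between the tumors. Ras and MAPK output genes were higher in tumor by medians of 1.03 and 0.82. Of the 14 reference genes 0 passed and the median was -0.03. Endothelial and fibroblast markers were shifted upward without a member past the mark. Endothelial markers had 23 of 25 above 0, beside 43.8% of all genes, and a median of 0.43, from tumor differences of -1.32 and -0.90, with genotype medians of -0.17 in lung and 0.26 between the tumors. Fibroblast markers had 12 of 19 above 0 and a median of 0.45, with genotype medians of -0.00 in lung and 0.45 between the tumors. Over all 40 lists, 21 had no higher member and 25 no lower member.

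**Figure D4:**
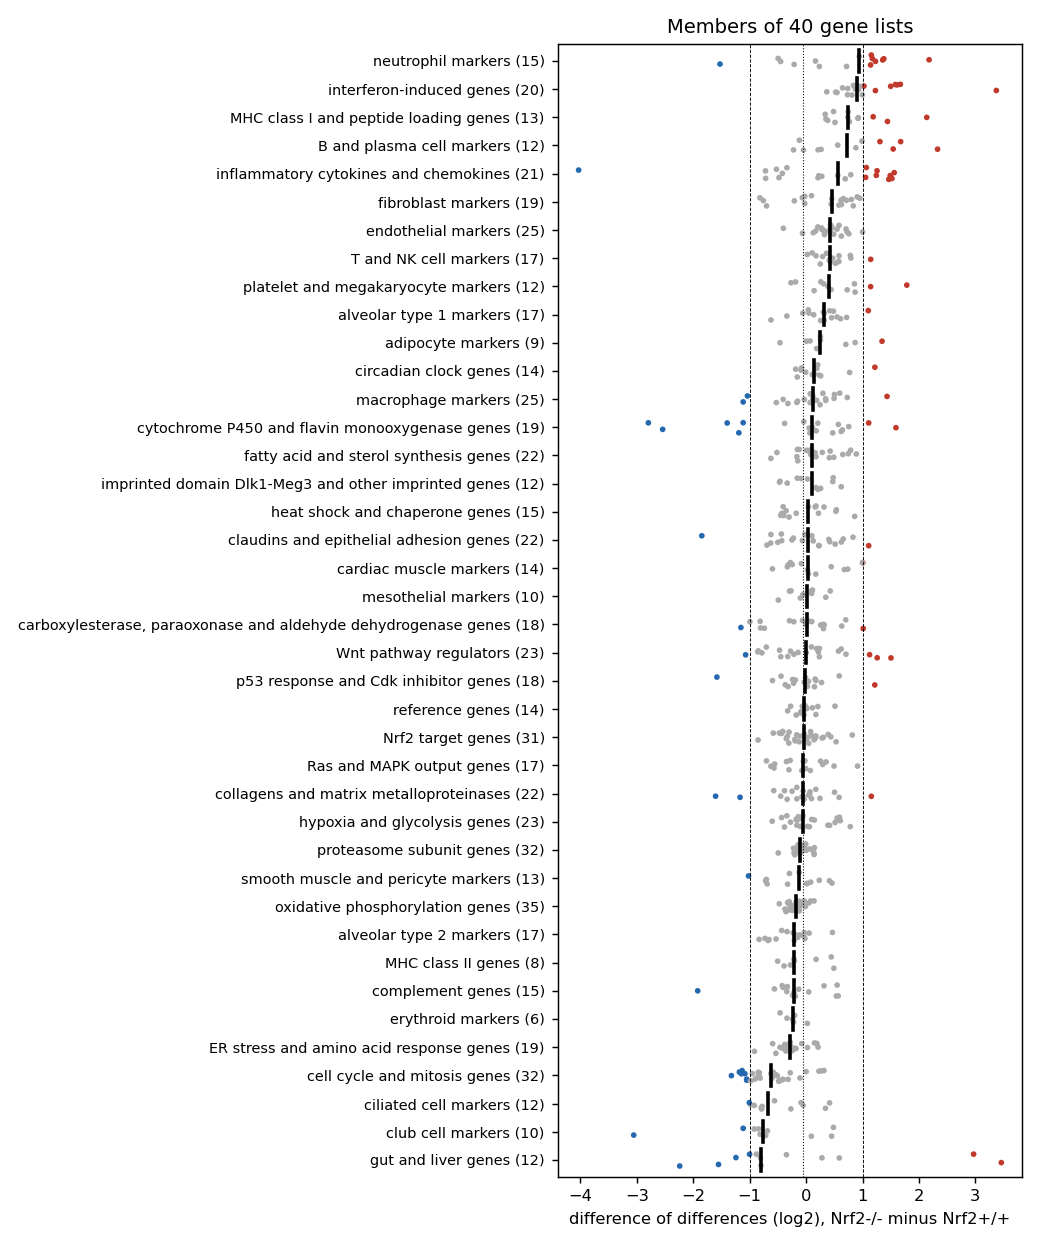
Difference of differences (x axis, log2) of each measured member of 40 gene lists, 1 point per gene, with the number measured in brackets; points past 2-fold are red or blue, black bars are list medians and the dotted line is the median of all genes. Neutrophil and interferon-induced genes have the highest medians, 0.94 and 0.91, and club cell and gut and liver genes the lowest, -0.77 and -0.80.

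**Figure D5:**
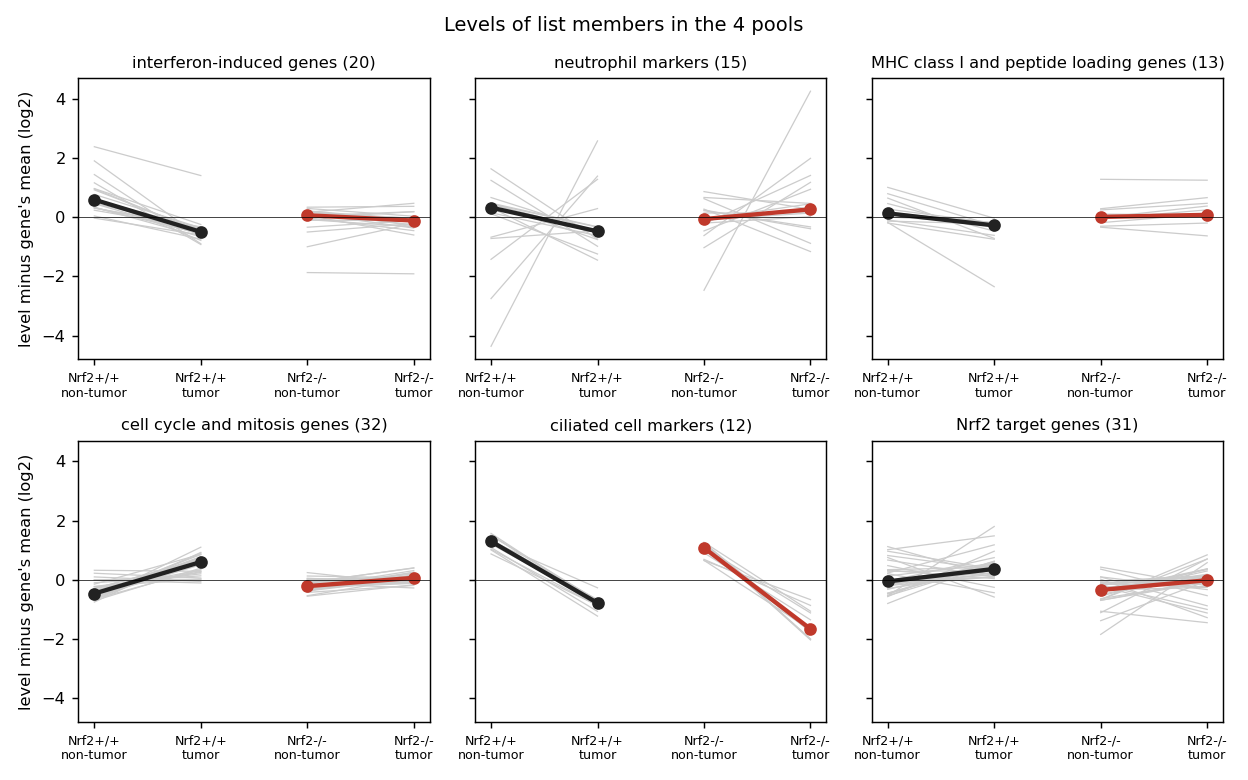
Levels of the members of 6 lists in the 4 pools (y axis, log2 relative to the gene's own mean over the pools), with grey lines for genes and thick lines for the list median. Interferon-induced genes are lower in tumor in Nrf2+/+ mice (medians of 0.59 and -0.50) and nearly level in Nrf2-/- mice (0.06 and -0.12), and cell cycle genes are higher in the Nrf2+/+ tumor (-0.46 and 0.60) with a smaller step in Nrf2-/- mice (-0.21 and 0.07).

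Where genes had several probes, most gave the same sign. Among 4087 genes with 2 or more probes well above background on all arrays, 47 were higher by their representative probe. Of these, 38 were higher by every probe, and all 47 had every probe above 0. Lower genes numbered 30, of which 18 were lower by every probe and 27 had every probe below 0. Both counts were smaller shares than the 2.66% higher and 1.65% lower of all 16287 genes. Besides those above, Spic, a transcription factor of iron-recycling macrophages, had -1.67, -2.50, -2.96 and -1.48 and 2 probes at 2.30 and 1.89. Tmem40, a membrane protein, had 1.58, 0.13, 0.14 and 0.89 and 2 probes at 2.20 and 2.53. Bdh2, a dehydrogenase of ketone and iron metabolism, had -2.72, -2.37, -1.06 and -2.86 and probes at -2.15 and -2.30, and Prr15 had -0.72, 1.23, 0.50 and 0.56 and probes at -1.89 and -1.62. Spic was highest in the Nrf2-/- tumor, Bdh2 in the Nrf2+/+ tumor, and in the Nrf2+/+ non-tumor pool Tmem40 was highest and Prr15 lowest.

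A difference between the genotypes that is the same in both tissues cancels by definition. In 32 genes the Nrf2-/- pools differed from the Nrf2+/+ pools by at least 4-fold in both tissues in 1 direction. Their median difference of differences was 0.04, and their values ran from -1.19 to 2.97, so the differences were not all equal in the tissues. Of the 32, 3 passed 2-fold, P2rx2 at -1.19, Ly6f at 1.45 and Fgg at 2.97. This was a larger share than the 2.66% higher and 1.65% lower of all genes. C3, the central complement component, was lower in Nrf2-/- mice, with genotype differences of -3.60 in lung and -3.95 in tumor, and gave -0.34. Rmnd1, a mitochondrial protein, was lower, at -4.37 and -4.55, and gave -0.19, and Pitrm1, a mitochondrial protease, was higher by 3.01 and 3.07 and gave 0.06.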

How the data were processed

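RNA of 4 pools, each from 8 mice per the labels' protocols, was hybridised to 1-colour Agilent arrays annotated on mm9. The deposited unit, per the file headers, is linear spot intensity after background subtraction by Agilent Feature Extraction 10.7.3.1, with flags and an error per spot. Any scaling between arrays by the submitters is not given in the sources used here. From these, log2 of the processed signal less each array's 75th percentile (760, 742, 555 and 584 units) was taken, spots of a probe were averaged, and 4 non-uniform of 41174 non-control probes were left out. The median SD between the spots of 245 repeated probes was 0.09 to 0.10. Symbols, for 26686 probes, came from RefSeq (GRCm38.p6) by unversioned accession, used for names only. Groups came from the labels. The error of a difference of differences adds the 4 spot errors in quadrature. The arithmetic was tested on simulated data. Named were the 10 highest and lowest genes, the 5 each way passing by every probe, the 4 per pattern, the 3 per pool apart and the 4 largest of each list; further list members are examples chosen after their values were seen, and a few genes are not reported here. Members and lists were chosen with earlier results of these data known. Alternatives were other scalings, background correction (limma 3.58.1, R 4.3.3), filters, probe averaging and the submitters' value table. Python 3.11.15, numpy 2.4.6, pandas 2.3.3 and matplotlib 3.10.9 were used.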

Additional observations from a re-analysis of the deposited data

Results flagged for a closer look

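In 5 of the genes named, the tumor difference passed 2-fold in opposite directions in the genotypes. With 1 pool per group the difference between the genotypes was not tested. Cxcl5 was higher in the Nrf2+/+ tumor by 2.85 and lower in the Nrf2-/- tumor, at -1.18, a difference of differences of -4.03. Gm10825, a predicted gene, had tumor differences of 1.45 and -1.38, which gave -2.83. Fras1, an extracellular matrix protein of basement membranes, had 1.06 and -1.32, which gave -2.38, and its non-tumor levels of -1.49 and -1.50 were alike. Acod1 had -1.40 and 1.80, which gave 3.20. Spic had -1.28 and 1.02, which gave 2.30.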

How the results depend on the processing

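Of the 90 named genes past 2-fold, 37 stayed past it in all 8 alternative runs. Another 27 did in 7 and were too dim for the filter at a signal of 100. The other 26, among them Ccnb1, Top2a, Ifit2, Il1r2, Mmp9, Ccl3, Nlrc5 and Gzmb, fell short in at least 1. No value past 2-fold reversed, but most runs could hardly reverse one. The filters left each gene's value unchanged. Median and spike-in scaling shifted all values by a constant (-0.16 and -0.07), and the submitters' value table shifted the median by -0.0001. Quantile normalization, normexp and probe averaging could change a gene's own value. The counts of 434 higher and 269 lower genes changed with the setting, and the cause was not tested except where fewer or more genes were counted. Median scaling gave 456 lower genes. The normexp background correction, made on median spot signals because the files hold no mean signals, gave 212 higher and 155 lower. A signal of at least 100 on all arrays left 13019 genes, with 194 higher and 150 lower. Counting genes well above background on at least 1 array gave 1399 higher and 819 lower of 20553. With normexp the list medians were -0.45 for gut and liver genes, -0.30 for ciliated cell markers, 0.58 for neutrophil markers and 0.71 for platelet markers. The neutrophil median was 0.23 at a signal of at least 100, and the cytokine median 0.26 with genes above background on at least 1 array. Over all alternatives 5 to 10 interferon-induced genes were higher and 3 to 12 cell cycle genes lower. Sizes of some genes shrank by well over their scanner error in at least 1 alternative. The values nearest to 0 were 1.26 for Spic (2.30 in the main run), 1.84 for Acod1 (3.20) and -2.49 for Cxcl5 (-4.03). Leaving out an array was not possible, since the value needs all 4. No paired analysis was possible because each group has 1 array.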

Other observations

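Some genes were well above background in 1 tumor pool only and so had no difference of differences. That they read highest in that pool follows largely from this selection. Of 32300 genes or transcripts, 144 were such genes in the Nrf2-/- tumor, 54 with a symbol. In the Nrf2+/+ tumor there were 158, 62 with a symbol. In non-tumor lung, 876 were found in the Nrf2+/+ pool only and 451 in the Nrf2-/- pool only. At least 2-fold over every other array were 93 of the 144 and 54 of the 158. Folds here are lower bounds against the higher of the array's lowest signal well above background and the gene's own signal. That lowest signal differs between arrays, so these counts cannot be compared between the tumors. In the Nrf2-/- tumor, Alpk2, a kinase, was at least 9.03-fold higher than in any other pool. Cbln1, a synapse organiser, was at least 8.18-fold higher, Onecut2, a transcription factor of liver and neuroendocrine cells, at least 7.63-fold and Gdap1, a mitochondrial protein of neurons, at least 7.55-fold. In the Nrf2+/+ tumor, Slc22a28, an organic anion transporter family member, was at least 6.19-fold higher, Obox7, an oocyte homeobox gene, at least 5.31-fold, Otx1, a head homeobox gene, at least 4.66-fold and Olfr1510, an olfactory receptor, at least 4.46-fold.

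Of the cell type lists, platelet markers had the largest median genotype difference in both tissues. All 12 were lower in Nrf2-/- than in Nrf2+/+ mice in both tissues, with medians of -1.62 (lung) and -0.97 (tumors). Their difference of differences had a median of 0.41, with 2 members at least 2-fold higher (16.7%, beside 2.66% of all genes). Rgs18, a regulator of G protein signalling in platelets, had levels of 1.76, -0.93, -1.57 and -2.46 and gave 1.78. Ppbp, a platelet chemokine, differed by -2.42 and -2.16 and gave 0.26. Mesothelial markers were higher in Nrf2-/- mice in both tissues, 10 of 10 in each, by medians of 1.00 and 0.91, and their difference of differences had a median of 0.02.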
